A study of Mus musculus with 38 samples.

Results

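Interferon-stimulated antiviral genes were followed in hypothalamic RNA of 38 female FVB/N mice, 1 array per mouse. The 40 genes of the group were listed by name as targets of interferon with a part in antiviral defence. The list was made with earlier results of these data known. Counts over it therefore describe these genes and are no independent test. A gene was measured by the probe set that carries its symbol alone, and the brightest of them would have been taken had there been several. 38 of the 40 genes had such a probe set, each exactly 1. Isg15 shares its probe set with Gm9706 and was left out for that reason, and Ifi44 had none among the 34760 probe sets analysed here.

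The AAV experiment comprised 18 mice aged 12 weeks, all of them wild-type. 5 mice (18Q) had received AAV-HTT853-18Q and 8 mice (79Q) AAV-HTT853-79Q into both sides of the hypothalamus at 8 weeks of age, 4 weeks before death. These rAAV5 vectors encode an 853 amino acid piece of human huntingtin (HTT) with 18 or 79 CAG repeats, driven in neurons by the human Synapsin promoter. The 5 Control mice were not injected, so that surgery, vector and HTT fragment cannot be told apart in a comparison with Control. The BACHD line carries full-length human HTT with 97 CAG repeats in all tissues. It was compared with WT mice at 2 months (6 BACHD and 6 WT) and at 10 months (5 BACHD and 3 WT).

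Type I interferon is released by cells that detect viral nucleic acid. It binds the receptor chains Ifnar1 and Ifnar2, whose kinases activate STAT proteins, and Stat2 with Irf9 and a partner STAT then enters the nucleus as the ISGF3 complex. ISGF3 binds a short DNA element, the interferon-stimulated response element, near many of its target genes. The products of interferon-stimulated genes detect viral RNA, stop its translation, degrade it or hold virions at the membrane. Neurons, glia and vessel cells of the brain can all respond to interferon. Expression is given below as log2 intensity, so that a difference of 1 is a doubling, and levels are compared between arrays for the same gene only.

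RefSeq promoter windows (GRCm38.p6, from 250 bases before to 50 bases after the start) were found for 28 of the 38 measured genes. The response element core was searched as GAAA, any 2 bases and GAAA again on both strands, and 13 of the 28 genes (46.4%) held it, compared with 3.99% of 27025 genes with such a window. The gamma-activated site was searched as TTCNNNGAA on both strands, and 8 of the 28 genes (28.6%) held it, compared with 9.55% of all genes. The letters of both motifs can overlap. The stretches below show the core, in capitals, in the 160 bases before the start of 6 genes that differ widely in their change. They are written 5′ to 3′ along the gene, and lie at chr19:34640729-34640888 (plus strand, Ifit1), chr7:104465194-104465353 (minus, Trim30a), chr7:104507850-104508009 (minus, Trim30d), chr12:26456453-26456612 (minus, Rsad2), chr5:120907526-120907685 (minus, Oas1a) and chr8:71537473-71537632 (minus, Bst2).
Ifit1: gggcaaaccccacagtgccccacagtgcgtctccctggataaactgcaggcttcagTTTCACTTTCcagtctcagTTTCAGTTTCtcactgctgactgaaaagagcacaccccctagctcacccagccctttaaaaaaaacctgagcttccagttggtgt
Trim30a: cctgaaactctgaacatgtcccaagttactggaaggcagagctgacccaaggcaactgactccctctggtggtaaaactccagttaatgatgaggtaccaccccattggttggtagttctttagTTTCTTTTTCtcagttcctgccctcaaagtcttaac
Trim30d: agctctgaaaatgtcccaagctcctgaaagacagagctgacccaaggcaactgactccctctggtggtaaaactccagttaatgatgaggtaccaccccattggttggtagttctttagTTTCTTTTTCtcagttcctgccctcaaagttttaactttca
Rsad2: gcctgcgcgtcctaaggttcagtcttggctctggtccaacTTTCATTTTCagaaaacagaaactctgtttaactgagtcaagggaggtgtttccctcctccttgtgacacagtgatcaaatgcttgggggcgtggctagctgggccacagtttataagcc
Oas1a: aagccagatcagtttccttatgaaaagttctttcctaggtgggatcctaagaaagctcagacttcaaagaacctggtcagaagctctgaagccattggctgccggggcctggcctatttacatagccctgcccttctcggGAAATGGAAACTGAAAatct
Bst2: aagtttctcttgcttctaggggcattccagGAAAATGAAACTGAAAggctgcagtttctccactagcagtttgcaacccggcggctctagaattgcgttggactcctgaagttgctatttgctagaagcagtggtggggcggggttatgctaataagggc
In Ifit1 the core stood at 2 places, beginning 104 and 85 bases before the start. In Oas1a and Bst2 the capitals hold 2 overlapping matches each. The start meant here is the one used for the promoter window. The last 19 bases shown for Oas1a and the last 4 for Trim30d lie within the annotated gene. Of the Oas1a capitals, all but the first fall in that part. Trim30a and Trim30d are neighbours on chromosome 7, and their stretches were identical at 148 of 155 bases (95.5%) once shifted by 5 bases. A match of letters is no proof of binding. The median log2 change in 18Q was 1.29 over the 13 genes with the core and 1.43 over the 15 genes whose window lacked it, as a description.

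36 of the 38 interferon-stimulated genes were higher in 18Q than in Control (limma, adjusted p under 0.05), and none was lower, when 1.81% of all probe sets were higher and 0.308% lower. The median log2 change of the 38 genes was 1.40, and that of all probe sets -0.01. In 79Q 32 of the 38 were higher than in Control and none lower, compared with 1.49% of all probe sets higher and 0.581% lower, with a median change of 1.12 over the genes and -0.02 over all probe sets. The groups did not overlap, all injected mice above all Control mice, for 36 genes in 18Q (2.57% of all probe sets) and for 34 in 79Q (1.77%). In tissue RNA a change in the number of cells of a type and in the RNA per cell cannot be told apart. Both comparisons use the same 5 Control mice, so that they are not independent, and the values of both are given side by side. The exact two-sided permutation test on single genes cannot go below p = 0.00794 with 5 against 5 mice or p = 0.000777 with 8 against 5. Ifit1 reached both, which comes with the lack of overlap and is no separate support.

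**Figure D1:**
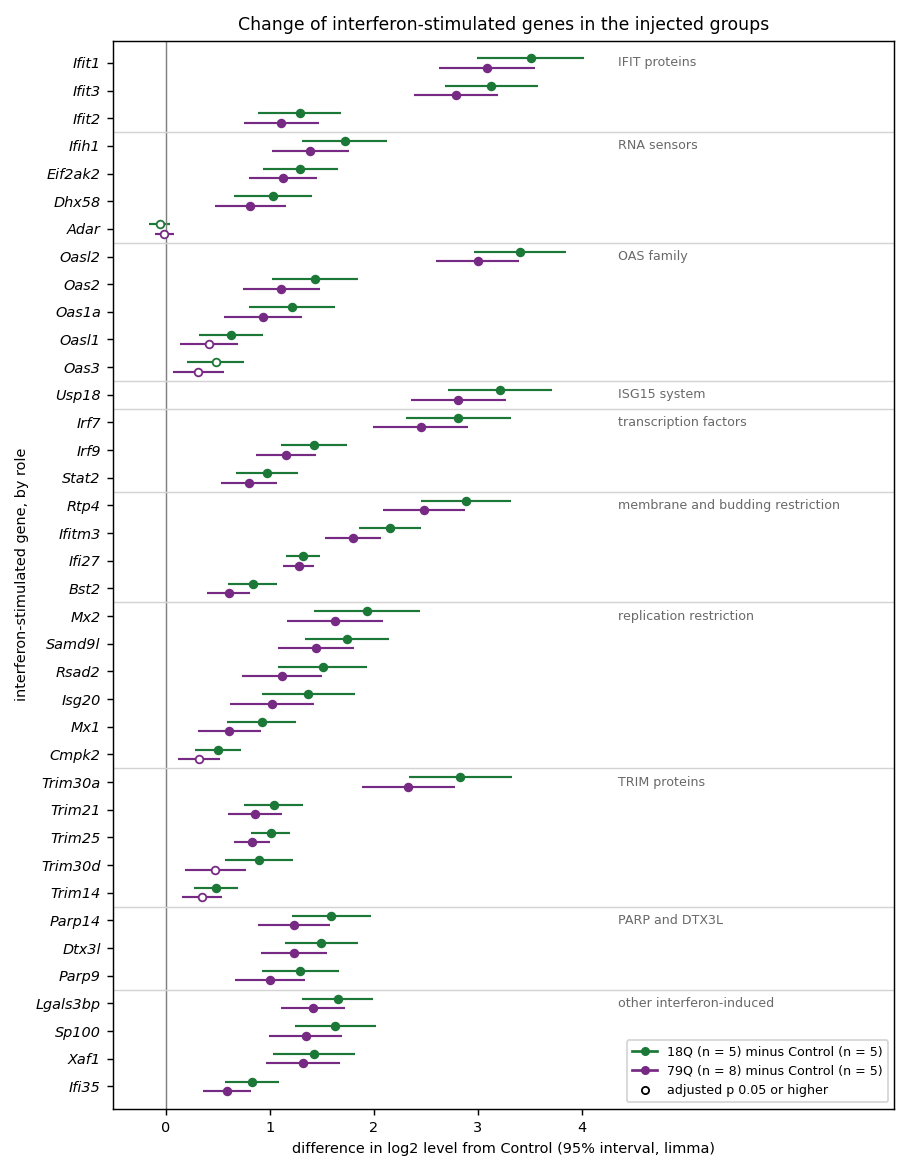
Difference in log2 level from the 5 Control mice (x axis) of 38 interferon-stimulated genes (y axis, by role) in 18Q (n = 5, green) and 79Q (n = 8, purple). Points are group differences and lines their 95% intervals from limma, with open points where the adjusted p was 0.05 or higher, which are Adar and Oas3 in 18Q, and Adar, Oas3, Oasl1, Cmpk2, Trim30d and Trim14 in 79Q.

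The IFIT proteins bind viral RNA that lacks the cap marks of the host and keep it from the ribosome, and all 3 rose in both injected groups. Ifit1 read 10.48, 9.59, 9.83, 10.28 and 8.97 in 18Q replicates 1, 2, 3, 4 and 6, and 6.14, 6.40, 6.33, 6.51 and 6.24 in Control replicates 1, 2, 4, 5 and 7. In 79Q its lowest, median and highest values were 8.87, 9.36 and 10.17. All injected mice lay far above all Control mice, and the log2 difference from Control was 3.51 (SE 0.24, adjusted p = 1.7e-07), or 11.4-fold, in 18Q and 3.08 (SE 0.22, adjusted p = 2.5e-07), or 8.48-fold, in 79Q. No other gene of the group changed more in 18Q. Ifit3 followed with 3.13 and 2.79. Ifit2 was less changed. Its 18Q values lay between 8.04 and 9.0, those of 79Q between 8.11 and 9.26 and those of Control between 7.29 and 7.44, which gave differences of 1.29 and 1.11. The 3 genes are neighbours on chromosome 19.

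Among RNA sensors, Ifih1 (MDA5, which recognizes long double-stranded RNA), Dhx58 (LGP2, its cofactor) and Eif2ak2 (PKR, the kinase that stops translation) rose, whereas Adar, which edits double-stranded RNA, did not pass the test. Ifih1 read 8.47, 8.08, 8.19, 8.58 and 7.57 in 18Q and 6.49, 6.64, 6.35, 6.49 and 6.32 in Control, in the order of replicates given above. Its 79Q values ran from 7.49 over a median of 7.77 to 8.60, again clear of Control. The differences were 1.72 (SE 0.19) and 1.39 (SE 0.17). Eif2ak2 differed by 1.29 and 1.13, and Dhx58 by 1.03 and 0.82. Adar read 10.47, 10.59, 10.37, 10.39 and 10.42 in 18Q and 10.55, 10.59, 10.49, 10.48 and 10.43 in Control, with 10.44, 10.48 and 10.61 as lowest, median and highest in 79Q. The groups overlapped, with differences of -0.06 (95% interval -0.15 to 0.04) in 18Q and -0.01 (-0.10 to 0.08) in 79Q, the latter turning to 0.02 when quantile normalization was repeated and to 0.01 without Control replicate 2.

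The OAS enzymes make 2′-5′-linked oligoadenylates that switch on an RNA-degrading nuclease, and Oasl1 and Oasl2 are related proteins. In 18Q 4 of the 5 measured genes rose and in 79Q 3. Oasl2 read 11.71, 10.90, 10.99, 11.53 and 10.55 in 18Q and 7.72, 7.73, 7.84, 7.75 and 7.65 in Control. In 79Q it ranged from 10.18 to 11.35 with a median of 10.71. The Control values of Oasl2 were close together, and the differences were 3.40 (SE 0.21, 10.6-fold) and 3.0 (SE 0.19, 7.98-fold). Oas2 rose by 1.44 and 1.11, and Oas1a by 1.21 and 0.94. Oasl1, the neighbour of Oasl2 on chromosome 5, differed by 0.63 in 18Q (adjusted p = 0.029) and 0.42 in 79Q (adjusted p = 0.13). The call for Oasl1 in 18Q depended on single mice, with an adjusted p between 0.058 and 0.096 without 18Q replicate 1, 3 or 4 or Control replicate 2, 5 or 7. For Oas3 the 18Q mice lay between 6.67 and 7.28, the 79Q mice between 6.54 and 7.24 and the Control mice between 6.29 and 6.65, and its differences of 0.48 (adjusted p = 0.065) and 0.31 (adjusted p = 0.21) did not pass. Without 18Q replicate 2 or 6, Oas3 passed in 18Q (adjusted p = 0.0436 and 0.0225).

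Of the ISG15 system only Usp18 was measured alone. Usp18 removes the ubiquitin-like Isg15 from proteins and also restrains signalling at the interferon receptor. Its values were 10.45, 9.63, 9.64, 10.19 and 9.08 in 18Q and 6.60, 6.58, 6.63, 6.60 and 6.52 in Control, and 8.87, 9.38 and 10.20 at the lowest, median and highest in 79Q. Control mice lay close together and injected mice far above them, and the differences were 3.21 (SE 0.24, 9.26-fold) and 2.81 (SE 0.21, 7.03-fold).

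The transcription factors of the pathway rose together. Irf7, which drives interferon genes after infection, read 9.88, 9.14, 9.41, 9.97 and 8.68 in 18Q and 6.66, 6.49, 6.78, 6.24 and 6.86 in Control. In 79Q Irf7 had a lowest value of 8.67, a median of 9.01 and a highest of 9.92. No injected mouse came near the Control range, and Irf7 differed by 2.81 (SE 0.24) in 18Q and 2.45 (SE 0.22) in 79Q. Irf9, the DNA-binding part of ISGF3, differed by 1.43 and 1.16. For Stat2 the 18Q mice lay between 8.95 and 9.77, the 79Q mice between 9.03 and 9.66 and the Control mice between 8.42 and 8.63, for differences of 0.98 and 0.80.

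Proteins that act at membranes or on budding virions were also higher, all 4 in both groups. Rtp4, an interferon-induced chaperone of receptors with antiviral activity, read 9.73, 9.03, 9.06, 9.51 and 8.66 in 18Q and 6.05, 6.45, 6.46, 6.32 and 6.27 in Control. Its 79Q values were 8.28, 8.77 and 9.52 at the lowest, median and highest. The change of Rtp4 was 2.89 (SE 0.21, 7.40-fold) in 18Q and 2.48 (SE 0.19, 5.58-fold) in 79Q, with no overlap. Ifitm3, which blocks fusion of virions with endosomes, changed by 2.16 and 1.80, and Ifi27 by 1.32 and 1.28. Bst2 (tetherin, which holds budding virions on the cell) lay between 8.16 and 8.71 in 18Q, between 8.12 and 8.48 in 79Q and between 7.49 and 7.96 in Control, differing by 0.84 and 0.61.

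Among genes that restrict replication, all 6 rose in 18Q and 5 in 79Q. Mx2, a dynamin-like GTPase, read 7.83, 7.33, 7.08, 7.57 and 6.22 in 18Q and 5.55, 5.21, 5.22, 5.06 and 5.32 in Control. In 79Q the lowest value was 6.56, the median 6.82 and the highest 7.49. 18Q replicate 6 stood below the other injected mice yet above every Control mouse, and Mx2 differed by 1.94 (SE 0.24) and 1.63 (SE 0.22). Its neighbour Mx1 differed by 0.92 and 0.61. The adjusted p of Mx1 in 79Q was 0.029, and lay between 0.0625 and 0.0855 without 79Q replicate 8 or Control replicate 1, 2, 4 or 5. Samd9l changed by 1.74 and 1.45, Rsad2 (viperin, which makes a chain-terminating nucleotide) by 1.51 and 1.12, and the exonuclease gene Isg20 by 1.37 and 1.02. Cmpk2, the mitochondrial nucleotide kinase encoded beside Rsad2 on chromosome 12, lay between 9.26 and 9.88 in 18Q, between 9.19 and 9.61 in 79Q and between 8.90 and 9.08 in Control. It differed by 0.50 in 18Q (adjusted p = 0.013, and 0.051 without 18Q replicate 4) and by 0.32 in 79Q (adjusted p = 0.099), in both cases without overlap.

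TRIM proteins are a family named for a shared arrangement of domains, many of them ubiquitin ligases, and several tune RNA sensing. All 5 rose in 18Q and 3 in 79Q. Trim30a read 9.66, 8.99, 9.25, 9.76 and 8.42 in 18Q and 6.52, 6.38, 6.37, 6.57 and 6.09 in Control, with 8.31, 8.62 and 9.52 as lowest, median and highest in 79Q. The groups were far apart, by 2.83 (SE 0.24) and 2.33 (SE 0.21). Trim30d, whose upstream stretch is nearly that of Trim30a, read 6.0, 5.65, 5.78, 6.38 and 5.34 in 18Q and 4.93, 4.81, 4.97, 4.96 and 4.98 in Control. It differed by 0.90 (SE 0.15) in 18Q and by 0.48 (SE 0.14, adjusted p = 0.093) in 79Q, and probes for near copies may share signal. Trim21, an intracellular antibody receptor, differed by 1.04 and 0.86, and Trim25, an activator of RIG-I, by 1.01 and 0.83. Trim14 lay between 7.39 and 7.73 in 18Q, between 7.16 and 7.85 in 79Q and between 7.01 and 7.2 in Control, with 0.49 in 18Q and 0.35 in 79Q (adjusted p = 0.057, and 0.048 without 79Q replicate 1 or 0.021 without 79Q replicate 3).

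Parp14, Dtx3l and Parp9 are neighbours on chromosome 16, and Dtx3l and Parp9 form an ADP-ribosylating ubiquitin ligase complex. All 3 rose in both groups. Parp14 read 8.44, 8.25, 8.43, 8.39 and 7.37 in 18Q and 6.49, 6.63, 6.50, 6.51 and 6.77 in Control, and 7.53, 7.72 and 8.42 at the lowest, median and highest in 79Q. 4 of the 18Q mice lay close together and replicate 6 was lower, for a difference of 1.59 (SE 0.18) and, in 79Q, 1.23 (SE 0.16). Dtx3l differed by 1.5 and 1.24. Parp9 lay between 7.58 and 8.30 in 18Q, between 7.39 and 8.36 in 79Q and between 6.46 and 6.96 in Control, for 1.29 and 1.0.

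The remaining 4 interferon-induced genes rose in both groups. Lgals3bp, a secreted glycoprotein that binds galectins, read 11.90, 11.11, 11.36, 11.74 and 11.05 in 18Q and 9.83, 9.82, 9.72, 9.87 and 9.65 in Control. In 79Q it had 10.82, 11.22 and 11.69 as lowest, median and highest. The groups stayed apart, with differences of 1.65 (SE 0.16) and 1.41 (SE 0.15). Sp100, a protein of nuclear bodies, changed by 1.63 and 1.34, and Xaf1, which promotes apoptosis, by 1.43 and 1.32. Ifi35 lay between 7.58 and 8.24 in 18Q, between 7.43 and 8.15 in 79Q and between 6.99 and 7.29 in Control, for 0.83 and 0.59.

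Within the injected groups the genes moved up and down by mouse. The difference from the Control mean, taken as the median over the 38 genes, was 1.67, 1.30, 1.45, 1.74 and 0.81 in 18Q replicates 1, 2, 3, 4 and 6. In 79Q replicates 1 to 8 it was 0.91, 1.22, 0.89, 1.21, 0.93, 1.02, 1.70 and 1.33, and in Control mice it stayed between -0.05 and 0.04. 18Q replicate 6 was lowest and 79Q replicate 7 highest of their groups. That order held for nearly every gene, as 18Q replicate 6 was the lowest 18Q mouse for 37 of the 38 genes and 79Q replicate 7 the highest 79Q mouse for 36. The share of all probe sets with the same order was not counted. Array medians over all probe sets ran from 7.40 to 7.46 in 18Q and from 7.39 to 7.45 in 79Q. The highest 18Q value came from replicate 1 for 20 genes and from replicate 4 for 16. No score over the genes was tested.

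**Figure D2:**
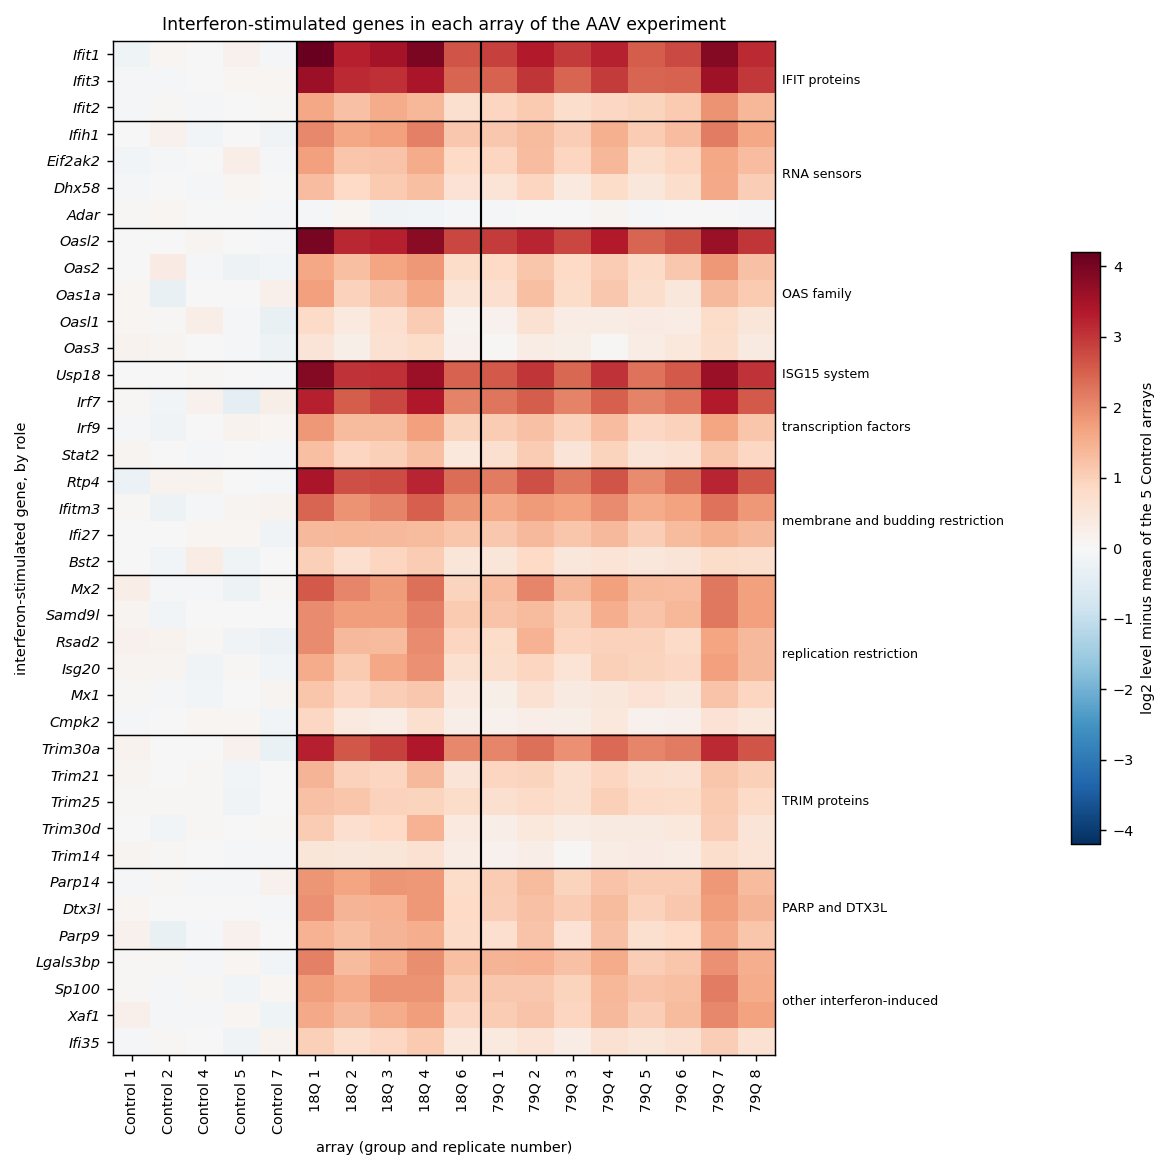
Log2 level of each interferon-stimulated gene (rows, by role) in each of 18 arrays (columns, with group and replicate number) minus the mean of the 5 Control arrays, in red where higher and blue where lower. Ifit1, Oasl2 and Usp18 are red in every injected mouse, Adar is pale throughout, and the columns of 18Q replicate 6 (median difference 0.81) and 79Q replicate 7 (1.70) differ from those of their groups.

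The injected groups were compared with each other for the repeat length. In 79Q vs. 18Q, 0 of the 38 genes and 0% of all probe sets passed in either direction (limma). At an unadjusted p under 0.05, 11 genes were lower in 79Q and none higher, when 2.66% of all probe sets were lower and 1.59% higher. 37 of the 38 differences were below zero, with Adar the exception, and 54.6% of all probe sets were below zero. The median difference was -0.28, compared with -0.01 over all probe sets, and the 95% intervals had a median half-width of 0.34. Since the genes move together by mouse, these counts are not 38 separate observations.

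Trim30d had the smallest p, with 5.22, 5.35 and 5.98 as lowest, median and highest in 79Q against 5.34 to 6.38 in 18Q, for a difference of -0.42 (SE 0.14, unadjusted limma p = 0.0078, exact permutation p = 0.030). The paper already names Trim30d for this difference from the same arrays, so that the value is no separate support. Ifitm3 read 11.64, 11.09, 11.26, 11.69 and 11.04 in 18Q and 10.76, 10.94 and 11.47 at the lowest, median and highest in 79Q, a difference of -0.35 (SE 0.13, limma p = 0.012, exact permutation p = 0.039). Trim30a differed by -0.50 (SE 0.21, limma p = 0.030, exact permutation p = 0.085), the largest drop of the group. In all 3 genes the ranges overlapped, and the adjusted p rounded to 1. The count of 11 rested on single mice. It was 2 without 18Q replicate 1 or 4 or 79Q replicate 1, 3 or 5, 4 without 79Q replicate 6, 7 without 18Q replicate 3, 28 without 79Q replicate 7 and 31 without 18Q replicate 6. Set beside the change in 18Q, the log2 change in 79Q was 82.2% at the median of the 36 genes higher in 18Q, from 53.4% for Trim30d to 96.9% for Ifi27.

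17 of the 38 genes lie within 200 kb of another gene of the group, in 7 neighbour groups by the RefSeq order (GRCm38.p6). Neighbours could differ widely in their change in 18Q. Oasl2 and Oasl1 changed by 3.40 and 0.63, Trim30a and Trim30d by 2.83 and 0.90, and Mx2 and Mx1 by 1.94 and 0.92. Parp14, Dtx3l and Parp9 were close to each other at 1.59, 1.5 and 1.29. Probe sets differ in how steeply they answer to RNA, so that these values rank genes only roughly.

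The genes around interferon signalling, from lists chosen with earlier results of these data known, changed unevenly. Of the type I interferon ligands 13 of 18 were measured, and 0 passed the test in 18Q or 79Q, also at an unadjusted p under 0.05 (limma). By that unadjusted rule 2138 of all 34760 probe sets were higher and 2258 lower in 18Q, and 1964 and 2888 in 79Q. The differences of the type I ligands in 18Q ran from -0.16 to 0.03, with Ifna2 at -0.16, Ifnb1 at -0.08, Ifna16 at -0.10 and Ifna9 at -0.04. Ifng, the type II ligand, and Ifnl2, a type III ligand, were at 0.06 each. The deposited table holds no detection calls, so whether these ligands were above background was not tested. Of 9 receptor chains and kinases 2 rose in 18Q, Il10rb by 0.39 and Ifnar2 by 0.27, and 1 in 79Q, Il10rb by 0.35, when 1.81% and 1.49% of all probe sets were higher. The median difference of the 9 was 0.09 in 18Q and 0.06 in 79Q. Ifngr1 (0.26, adjusted p = 0.054) and Jak2 (0.13, adjusted p = 0.098) did not pass in 18Q.

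Of the STAT and IRF factors outside the group, 3 of 7 measured rose in 18Q, namely Irf8 (0.83), Irf1 (0.77) and Irf5 (0.46), and 2 in 79Q, Irf8 (0.79) and Irf1 (0.72). Irf4 was at 0.84 in 18Q (adjusted p = 0.058). Sensors and adaptors of nucleic acid rose in 7 of 11 measured genes in 18Q and 6 in 79Q. Ddx58, which encodes RIG-I, changed by 1.75 and 1.46, the Z-nucleic acid sensor gene Zbp1 by 1.28 and 1.03, Tlr3 by 0.75 and 0.63 and the adaptor gene Myd88 by 0.59 and 0.49. Among 10 genes listed as negative regulators 3 rose in both groups. They were Herc6 (1.68 and 1.41) and Ube2l6 (1.16 and 0.98), which attach Isg15 to proteins, and Samhd1 (0.63 and 0.43), which depletes nucleotides, while the phosphatase gene Ptpn6 (0.46 in 18Q, adjusted p = 0.051) did not pass.

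The GTPases known from the response to interferon gamma rose in all 7 measured of 14 listed genes in both groups, among them Iigp1 (2.55 and 2.38), Irgm1 (2.38 and 2.26), Gbp3 (2.27 and 2.05) and Gbp7 (1.76 and 1.56). The median of the 7 was 2.10 in 18Q and 1.90 in 79Q. Genes of the immunoproteasome and of peptide loading on MHC class I rose in 7 of 10 cases in 18Q and 6 in 79Q. Tap1, a peptide transporter, changed by 1.56 and 1.46, B2m, the light chain of MHC class I, by 1.5 and 1.46, Psmb8 by 1.44 and 1.38 and Tap2 by 0.79 and 0.77.

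**Figure D3:**
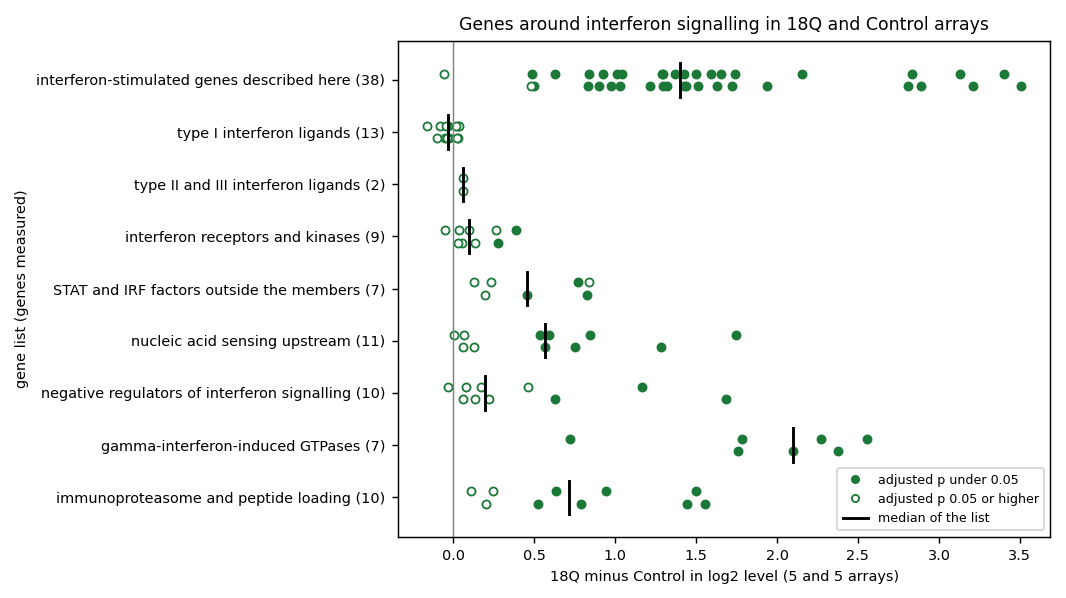
Difference in log2 level between 18Q and Control (x axis, 5 mice each) for the 38 interferon-stimulated genes and 8 lists of genes around interferon signalling (y axis, with the number measured). Each point is a gene, filled where the adjusted p was under 0.05, and black bars are medians, which lie near zero for the ligands, at 0.09 for receptors and kinases and at 2.10 for the GTPases.

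Some markers of other cells were also higher in the injected groups, and their part in the result was not tested. Of the microglial markers 3 of 6 measured were higher in 18Q and in 79Q, with Tmem119 at 0.89 in 18Q, and their mean log2 level lay between 8.55 and 8.94 in 18Q, between 8.48 and 9.06 in 79Q and between 8.24 and 8.34 in Control. Of the T cell markers 4 of 7 were higher in both, with Cd3g at 2.13, and the mean level was 6.49 to 7.10, 6.49 to 7.05 and 6.08 to 6.25. Of B and plasma cell markers 1 of 5 rose, Jchain by 4.50 in 18Q and 3.85 in 79Q, with mean levels of 6.62 to 7.45, 6.04 to 7.38 and 5.70 to 5.91. Nkg7 was the 1 of 6 NK cell markers that rose in 18Q (0.95), and none passed in 79Q. None of 4 monocyte and macrophage markers (Mrc1 highest at 0.19) and none of 3 plasmacytoid dendritic cell markers (Ly6d at 0.27) passed in either group.

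2 of 6 astrocyte markers rose in 18Q (Gfap by 0.77) and 1 of 6 endothelial markers (Cldn5 by 0.37), and none of either list passed in 79Q. None of 5 oligodendrocyte markers passed in either group (Mbp largest at 0.08 in 18Q), and 1 of 6 neuronal markers was lower in 18Q (Eno2 fell by 0.14) and none in 79Q. Of the hypothalamic markers 7 of 8 were measured and 0 passed in 18Q (Avp largest at -0.66) or 79Q, while all 7 differences were below zero in both groups. Their mean level lay between 9.65 and 10.64 in 18Q, between 9.94 and 10.45 in 79Q and between 10.47 and 10.59 in Control, so that 79Q lay below Control without overlap and 18Q overlapped with it. At an unadjusted limma p under 0.05, none of the 7 was lower in 18Q and 2 were in 79Q, Hcrt (-0.43, adjusted p = 0.0865) and Pmch (-0.30, adjusted p = 0.261). By that rule 2258 of all 34760 probe sets were lower in 18Q and 2888 in 79Q. The median difference over all probe sets was -0.01 in 18Q and -0.02 in 79Q. Hcrt, which encodes the orexin peptides, differed by -0.35 (SE 0.12) in 79Q vs. 18Q, with an adjusted p that rounded to 1. The thalamic and pituitary lists had no call in either group (Prkcd at 0.65 in 18Q). Pituitary markers varied by mouse, between 6.82 and 9.06 in 18Q, between 6.46 and 8.60 in 79Q and between 6.15 and 6.94 in Control, with Prl at 3.13 in 18Q (adjusted p = 0.17).

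BACHD mice were examined for the same genes, since they express mutant HTT without an injection. At 2 months 0 of the 38 genes passed the adjusted test in either direction, as did 0% of all probe sets. The differences ran from -0.24 to 0.21 with a median of -0.01, compared with -0.03 over all probe sets. At an unadjusted p under 0.05, 1 gene was lower and none higher, when 3.22% of all probe sets were lower and 0.872% higher. 16 of the 38 differences were above zero, as were 34.3% of all probe sets. That gene was Ifit3, with 6.76, 7.02 and 7.25 as lowest, median and highest in 6 BACHD mice and 7.0, 7.26 and 7.41 in 6 WT mice. The ranges overlapped, and the difference was -0.24 (SE 0.10, unadjusted limma p = 0.035, adjusted p = 0.94, exact permutation p = 0.052). Lgals3bp (9.37, 9.81 and 10.02 against 9.36, 9.53 and 9.85) differed by 0.21 (exact permutation p = 0.13), and Trim25 (6.62, 6.81 and 6.96 against 6.61, 6.69 and 6.79) by 0.10 (exact permutation p = 0.10). The count of 1 became 0 without BACHD replicate 1, 2 or 3 or WT replicate 1, 2, 3 or 7, and 2 without BACHD replicate 7. The 95% intervals had a median half-width of 0.19.

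At 10 months 0 of the 38 genes and 0% of all probe sets passed the adjusted test in BACHD vs. WT. At an unadjusted p under 0.05, 8 genes were higher and none lower, when 2.55% of all probe sets were higher and 2.0% lower. 33 of the 38 differences were above zero (53.9% of all probe sets), with a median of 0.08 compared with 0.01 over all probe sets. The genes were read in the same mice, so that these counts are not 38 separate observations. BACHD replicate 3 held the highest BACHD value for 14 genes and replicate 5 for 13. For 5 genes all BACHD mice were above all WT mice (1.93% of all probe sets), which were Oasl2, Rtp4, Ifih1, Xaf1 and Ifit3. Their exact permutation p was 0.0179, the smallest that 5 against 3 mice allow. That value comes with the lack of overlap and is no separate support. The largest difference at this age was 0.45 on the log2 scale.

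Oasl2 read 8.43, 8.39, 8.38, 8.16 and 8.48 in BACHD replicates 1 to 5 and 7.80, 7.88 and 8.07 in WT replicates 1 to 3, a difference of 0.45 (SE 0.09, limma p = 0.00071, exact permutation p = 0.0179). All BACHD mice lay above all WT mice, yet the adjusted p was 0.997, as for the other genes at this age. Rtp4 read 7.21, 7.16, 7.34, 7.09 and 7.38 in BACHD and 6.90, 6.90 and 6.80 in WT, a difference of 0.37 (SE 0.07, limma p = 0.00093, exact permutation p = 0.0179). For Ifih1 the values were 6.12, 6.27, 6.21, 6.17 and 6.23 in BACHD and 6.03, 6.02 and 5.98 in WT, a difference of 0.19 (SE 0.05, limma p = 0.0032, exact permutation p = 0.0179). Neither gene overlapped between the groups. Oasl2, Rtp4 and Ifih1 are given by mouse because their limma p were the smallest of the group at this age. Xaf1 differed by 0.27 and Ifit3 by 0.37. Ifit1 differed by 0.32, Isg20 by 0.15 and Rsad2 by 0.17, each with an exact permutation p of 0.0536. Irf7, which rose strongly in the injected groups, was at 0.02. The count of 8 was 5 without WT replicate 2, and other single mice moved it to between 7 and 10.

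**Figure D4:**
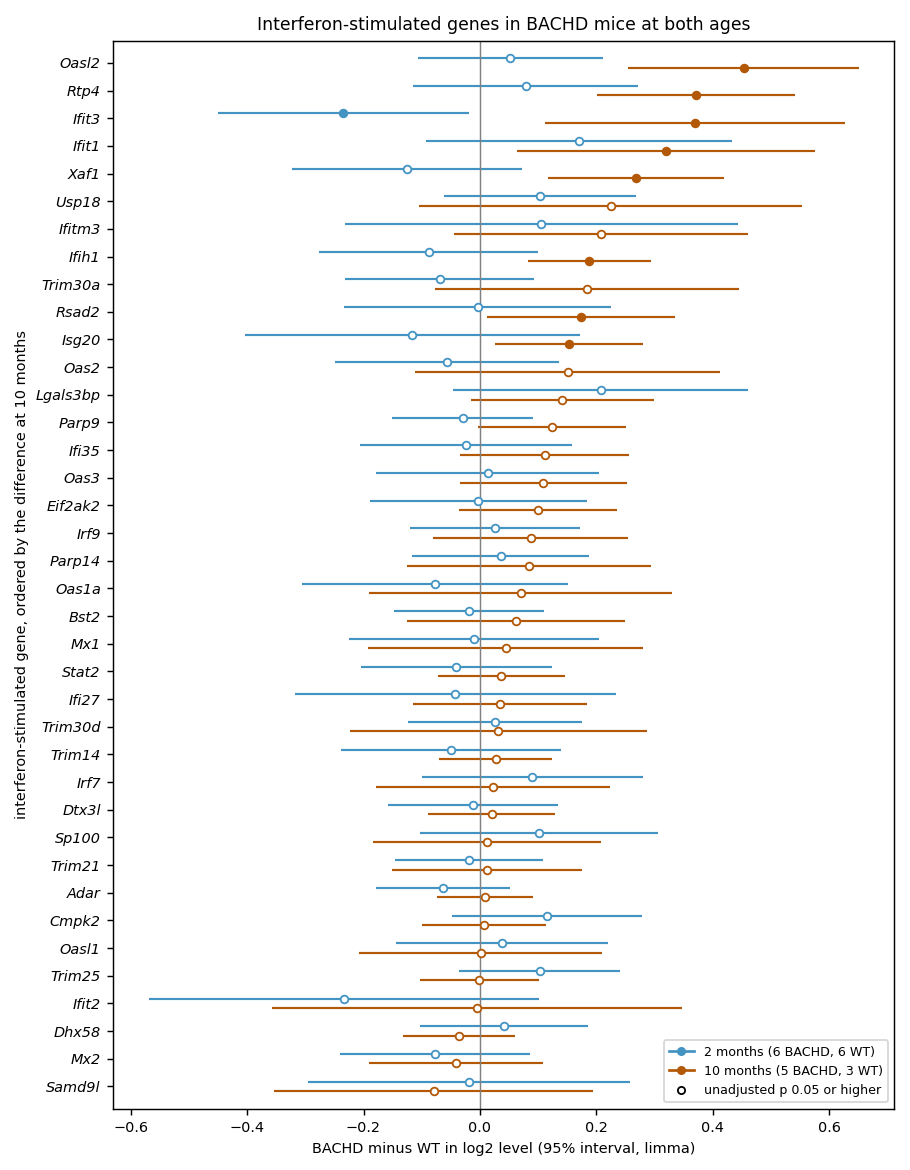
BACHD minus WT in log2 level (x axis) of 38 interferon-stimulated genes (y axis, ordered by the difference at 10 months) at 2 months (6 BACHD and 6 WT mice, blue) and 10 months (5 and 3 mice, orange), with 95% intervals from limma. Filled points have an unadjusted p under 0.05, which holds for Ifit3 alone at 2 months and for 8 genes at 10 months, and no gene passed the adjusted test.

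The effect of BACHD at 10 months minus that at 2 months was tested over all 20 mice, with 0 of 38 genes and 0% of all probe sets past the adjusted test. At an unadjusted p under 0.05, 5 genes had a larger effect at 10 months and none a smaller one, when 2.07% of all probe sets had a larger and 0.549% a smaller one. The genes were read in the same mice, so that these 5 are not separate observations. Ifit3 was first, as its difference was -0.24 at 2 months and 0.37 at 10 months, a change of 0.60 (SE 0.16). Oasl2 followed with 0.40 (SE 0.12), Xaf1 with 0.39 (SE 0.13), Ifih1 with 0.28 (SE 0.12) and Rtp4 with 0.29 (SE 0.13). Age and normalization run cannot be told apart in these arrays, though each effect is taken within its age. Across the 38 genes the change in 18Q and the effect at 10 months had a Pearson r of 0.70 and a Spearman rho of 0.53, as a description across genes, which are not independent replicates and share their probe sets. With the effect at 2 months the same values were 0.17 and 0.15.

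**Figure D5:**
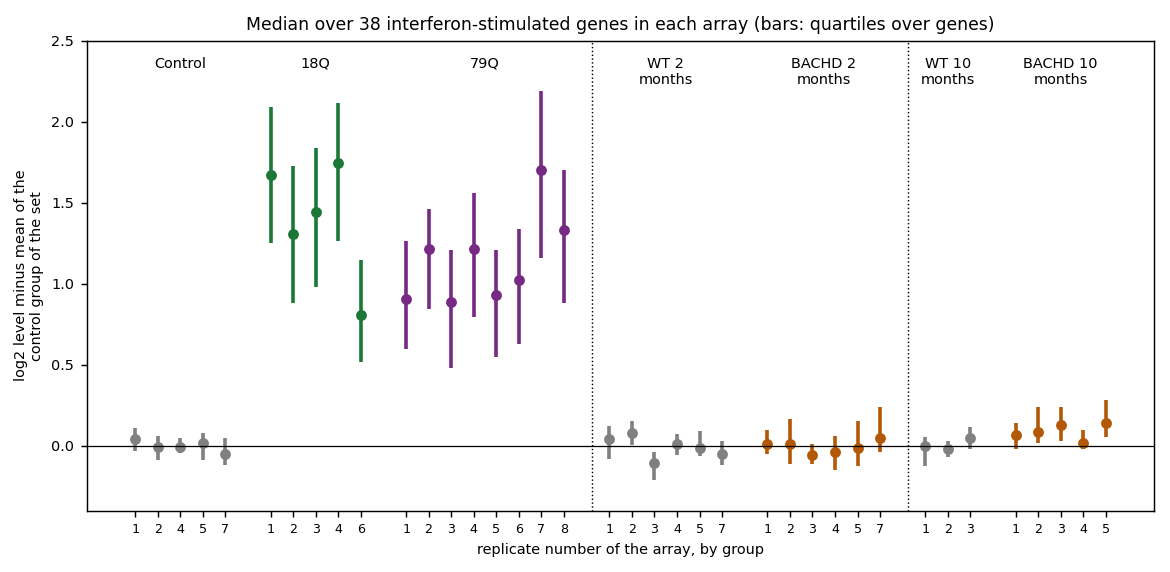
Median over 38 interferon-stimulated genes of the log2 level minus the mean of the control group of the same set (y axis) in each of the 38 arrays (x axis, replicate number by group), with bars from the lower to the upper quartile over genes. Control and WT arrays lie around zero, the injected arrays between 0.81 and 1.74, BACHD arrays between -0.06 and 0.05 at 2 months and between 0.02 and 0.14 at 10 months.

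Markers of neighbouring tissue also varied in the BACHD set. At 10 months all 6 thalamic markers were above zero in BACHD vs. WT (median 0.36, 0 calls), with mean levels of 8.40 to 9.47 in BACHD and 8.06 to 8.89 in WT, and the pituitary markers were at 6.06 to 8.55 and 5.64 to 8.14. Microglial markers had mean levels of 8.56 to 8.69 in BACHD and 8.50 to 8.68 in WT, and T cell markers of 5.84 to 6.08 and 5.79 to 5.97, with overlap in both. Of the 7 hypothalamic markers 0 passed, and 2 were lower at an unadjusted limma p under 0.05, as were 2.0% of all probe sets. At 2 months the thalamic list ran from 7.91 to 10.02 in BACHD and from 8.17 to 9.95 in WT. Their part in the results was not tested. Of the 69 measured genes in the lists around interferon signalling 0 passed at 10 months (limma). At an unadjusted p under 0.05, 5 of the 69 were higher and 0 lower, compared with 2.55% and 2.0% of all probe sets, and Jak2 (0.12), Myd88 (0.15), Tlr7 (0.15), Ube2l6 (0.14) and Gbp7 (0.20) were the 5.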

How the data were processed

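Hypothalamic RNA was hybridised to Affymetrix Mouse Gene ST 1.0 arrays, 1 per mouse. Per the labels and the study's methods, the authors read the raw files in R 4.1.1 with affy 1.70.0 (RMA: background correction, quantile normalization, median polish) and tested with limma 3.48.3. The deposited values are log2 intensities of 34760 probe sets. The AAV, 2 months and 10 months arrays shared no identical value across sets (up to 22 within a set), and were taken as 3 normalizations. Medians per array ran from 7.16 to 7.46, and the number of mice limits the precision. No probe set was filtered.

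Symbols came from the platform table (21640 probe sets with 1 symbol, 1321 with several, 11799 unlisted). The 40 genes, their roles, the other lists and the tests were chosen with earlier results of these data known. limma 3.58.1 (R 4.3.3, lmFit and eBayes at defaults) was run on all probe sets, with the 18 AAV arrays in 1 fit, each BACHD age alone and an age by genotype fit over 20 arrays, and Benjamini-Hochberg adjustment over all 34760. Steps were tested on simulated data. Exact permutation tests were two-sided and unadjusted (SciPy 1.17.1, Python 3.11.15). Every gene is named at least once, by role the largest and smallest change in 18Q with values by mouse or range, in the other comparisons the 3 smallest p, of each pathway list up to 4 genes with the smallest p in 18Q, and of each cell list the largest change. Others named were chosen after their values were seen, as were the promoters shown. Promoters came from RefSeq (GRCm38.p6). Alternatives were median centring, repeated quantile normalization, a filter on dim probe sets, trend with robust smoothing, array weights, a replicate block, other choices of probe set, fits of only 2 groups and leaving out each mouse. The labels number the samples within each group, and the paper's group sizes in mice equal the numbers of arrays. Each array was therefore taken as 1 mouse, and the tests set group differences against the spread between animals.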

Additional observations from a re-analysis of the deposited data

Results flagged for a closer look

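In 8 of 144 sets of values tested (a gene within a group of 5 to 8 mice) 1 mouse stood far from the others, by a criterion that marks about 1 in 20 groups by chance. 79Q replicate 7 stood above its group for Irf7 (9.92), Parp14 (8.42) and Trim30d (5.98), and 18Q replicate 6 below its group for Parp14 (7.37). In the BACHD set the far values were Adar in BACHD replicate 4 at 2 months (10.28), Ifih1 in WT replicate 1 at 2 months (6.52), Rtp4 in WT replicate 3 at 2 months (6.05) and Ifitm3 in BACHD replicate 4 at 10 months (9.81).

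Probe sets with several symbols took no part in the comparisons. The one of Oas1a and Oas1g was higher than Control by 2.14 in 18Q and 1.82 in 79Q, and the one of Sp100 and others by 1.66 and 1.38 (limma, both past the adjusted threshold). That of Isg15 and Gm9706 differed by 0.36 and 0.34 (adjusted p = 0.146 and 0.115) and did not pass.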

How the results depend on the processing

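The number of genes higher in 18Q than in Control was 34 to 37 when 1 mouse was left out and 26 to 37 under the other alternatives, and for 79Q 31 to 33 and 25 to 34. The 26 was reached with the replicate block, which used fewer mice. The 25 came with the filter on dim probe sets, which left 28 of the 38 genes to be tested. The comparisons without an adjusted call (79Q vs. 18Q, both BACHD ages, and age by genotype) stayed at 0 in every alternative run. The difference of Adar in 79Q (-0.01) turned to 0.0197 with repeated quantile normalization, and ran from -0.0302 without Control replicate 7 to 0.00904 without Control replicate 2. The counts at an unadjusted p moved more, and the cause was not tested. For 79Q vs. 18Q (11 lower) they were 2 to 31 without 1 mouse, 7 with the filter on dim probe sets (28 genes left), 17 with array weights and 3 with only the 2 groups. For BACHD at 2 months (1 lower) they were 0 to 2 without 1 mouse and 0 with median centring, repeated quantile normalization, the filter (14 genes left) and array weights. For BACHD at 10 months (8 higher) they were 5 to 10 without 1 mouse and 3 with the filter. Cmpk2 and Trim30d passed in 79Q with only the 2 groups fitted (adjusted p = 0.030 and 0.027), and Oasl1 and Cmpk2 no longer passed in 18Q (adjusted p = 0.109 and 0.0528).

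Mice of different groups share replicate numbers in the labels, but same-numbered mice did not deviate together in all cases of any comparison (correlations from -0.31 to 0.28), so that the numbers were not taken as a pairing. With a replicate block 26 genes were higher in 18Q and 27 in 79Q, 0 passed in the other comparisons, and the unadjusted counts were 20 for the injected groups against each other, 0 for BACHD at 2 months and 7 at 10 months. The block kept only mice whose number occurs in both groups. That left 3 against 3 for 18Q vs. Control, 5 against 5 for 79Q vs. Control and 3 against 3 at 10 months. The counts with the block therefore also rest on fewer mice. 3 WT mice at 10 months and dim probe sets limit what small changes can be seen.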
